A study of Mus musculus with 40 samples.

Results

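The forkhead family is a group of transcription factors that share a winged-helix DNA-binding domain. Its members were taken as every gene whose symbol had the form *Fox* followed by a class letter from a to s and a number, which gave 45 genes, all protein-coding, of the 26411 genes counted. RNA was sequenced from 24 whole mouse embryos at E9.5 and from 16 samples of E14.5 fetal liver LSK cells, the lineage-negative, SCA-1-positive, KIT-positive fraction that contains the hematopoietic stem and early progenitor cells and that was isolated by cell sorting. Each of the 10 groups held 4 libraries, and every library was labelled with its litter. The 6 embryo genotypes were wild type for both *Kat6a* and *Kat6b* (WT), *Kat6a*-/- (label cfd/cfd), *Kat6b*-/- (label dec/dec), *Kat6a* E/E (label G656E/G656E), *Kat6b* E/E (label G577E/G577E), and the double mutant, which was homozygous for both point mutations. The LSK samples covered WT and the 3 point-mutant genotypes and no null genotype. All mice were on a C57BL/6 background, each single mutant was wild type at the other gene, and the embryos had been selected for similar external appearance. *Kat6a* and *Kat6b* encode paralogous histone acetyltransferases; the null alleles lack internal exons, and the point mutations replace a glycine by glutamic acid in the acetyl-CoA binding domain.

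Forkhead factors are grouped in classes by the sequence of the DNA-binding domain, and several classes mark a germ layer or organ primordium in the early embryo. FOXA factors are pioneer factors of the endoderm, notochord and floor plate, FOXC factors act in the somites, pharyngeal mesoderm and vessels, and FOXF factors act in the lateral plate and in the mesenchyme around the gut and lung. FOXO factors are held out of the nucleus by PI3K and AKT signalling and are known for stem cell quiescence and lymphoid development in blood cells, whereas FOXM1 drives genes of mitosis in dividing cells.

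The gene counts of a library summed to 8401990 to 23339359 in embryos and to 12270376 to 59216547 in LSK samples. Gene-level counts did not check the genotype labels, since the deleted exons are part of a longer gene and a base exchange leaves the count unchanged: *Kat6a* was at 166 CPM (gene counts scaled to library size by TMM) in *Kat6a*-/- and 176 CPM in WT embryos. The LSK label was checked with 15 defining markers, among them *Kit*, *Ly6a* and *Flt3*, all of which exceeded 1 CPM in WT LSK samples, with a summed level of 2285 to 3228 CPM. Markers of other blood cells were present as well. The granulocyte and macrophage markers, 10 of 11 above 1 CPM, summed to 4008 to 6211 CPM in the WT LSK samples, and the erythroid markers to 1317 to 4767 CPM, with up to 16428 CPM in the double mutant. Libraries that stood apart were replicate 2 of the E9.5 double mutant, replicate 2 of the LSK *Kat6a* E/E group and all 4 LSK double-mutant libraries. In these libraries the surrogate variables of the model took up most of the deviation from the group mean (leverage 0.880, 0.977, and 0.918 to 0.998, where 1 means that a library is fitted exactly). Replicate 2 of LSK *Kat6a* E/E and replicates 2, 3 and 4 of the LSK double mutant detected 12600 to 13683 genes, whereas the other LSK libraries, among them replicate 1 of the double mutant, detected 16082 to 17647. These 3 double-mutant replicates came from 1 litter, and replicate 1 came from another.

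The WT embryo held transcripts of nearly the whole family, and WT LSK cells had more than 3 counts, over the 4 libraries, for 27 of the 45 members. On the length-corrected scale (RPKM, reads per kilobase of transcript scaled to library size, mean ± SD of 4 libraries), the highest levels in the WT embryo were those of *Foxp4*, a repressor of the lung, gut and nervous system, at 87.1 ± 4.35 and *Foxm1* at 46.6 ± 1.78. *Foxk2*, a ubiquitous regulator of metabolic genes, followed at 39.8 ± 1.62. *Foxo4* at 28.6 ± 1.52 and *Foxd1*, a marker of forebrain, retina and kidney stroma, at 26.6 ± 1.79 RPKM were next and lay within the sum of their SDs. Among the tissue-restricted members, *Foxc1* was at 20.3 ± 1.79 RPKM, *Foxc2* at 16.8 ± 1.65 RPKM and *Foxf1* at 13.2 ± 2.48 RPKM, while *Foxa2* reached 4.77 ± 0.720 RPKM in RNA of the whole embryo. The order of *Foxk1* (13.7 ± 0.602 RPKM), *Foxf1* and *Foxp1* (12.1 ± 0.859 RPKM) could not be told from their spread.

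In WT LSK cells the 5 highest RPKM levels were those of *Foxm1* (30.8 ± 1.01), *Foxk2* (29.4 ± 2.14), *Foxo3* (26.3 ± 2.06), *Foxp1* (22.4 ± 3.00) and *Foxp4* (21.1 ± 1.89). Neighbours in this order differed by less than the sum of their SDs. FOXO3 is known for the maintenance of hematopoietic stem cells, and FOXP1 for B cell development. At the other end of the scale, 12 members had no count in these samples.

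**Figure D1:**
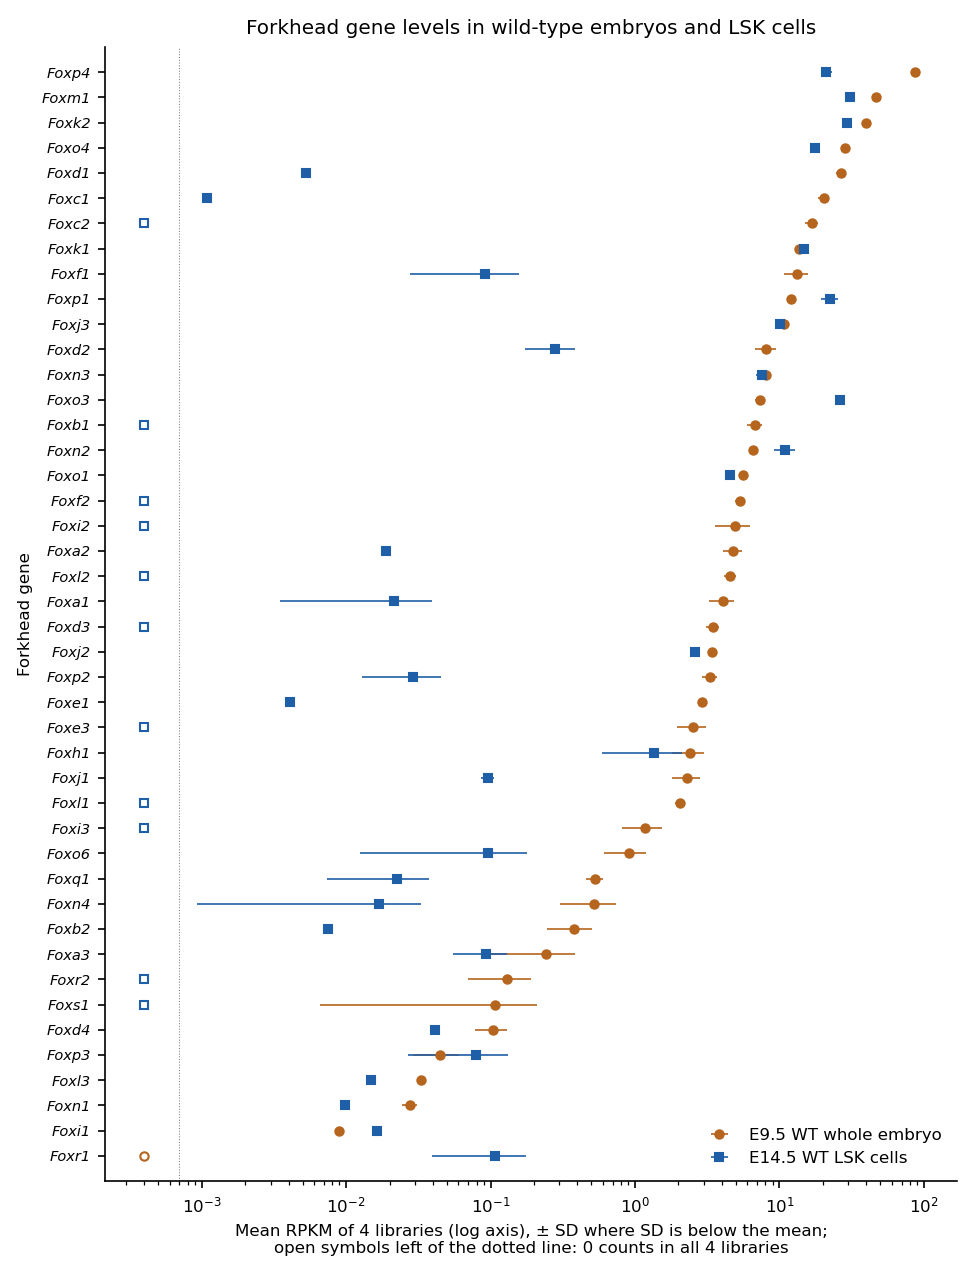
Mean level of 44 of the 45 forkhead genes in 4 WT embryo libraries (circles) and 4 WT LSK libraries (squares), in RPKM on a log axis, with SD bars where the SD is below the mean; open symbols left of the dotted line are genes with 0 counts in all 4 libraries. *Foxp4*, *Foxm1* and *Foxk2* lie at the top in the embryo, and 11 of the genes plotted had no count in WT LSK cells.

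Of the 35 members tested between WT LSK cells and WT embryos, 28 were lower and 3 were higher in LSK cells at a false discovery rate (FDR) below 0.05; over all 14462 genes tested, 79.8% were called, 41.9% lower and 37.9% higher. The filter on low counts was applied to both tissues together. Members counted in embryos but hardly in LSK cells could therefore only come out lower, and the 28 include such members. Tissue, stage, sorting and input amount change together here and cannot be told apart. Of the 4 WT LSK libraries, 3 came from 1 litter, and this fit had no litter block. Its SEs and FDRs may therefore be too small. The 3 members that were higher in LSK cells were *Foxo3*, *Foxp1* and *Foxn2*. *Foxo3* was at 48.4, 54.4, 49.9 and 46.3 CPM in the WT embryos and at 190, 186, 180 and 159 CPM in the WT LSK samples, each scaled within its tissue. The LSK samples were all above the embryos, with a log2 fold change of 1.84 ± 0.09 (SE; limma). *Foxp1* was at 89.9 to 105 CPM in the embryos and 141 to 191 CPM in LSK cells, a log2 fold change of 0.85 ± 0.12, and *Foxn2*, a little-studied broadly expressed member, was at 33.4 to 37.8 and 47.6 to 70.5 CPM, a log2 fold change of 0.74 ± 0.14. The groups did not overlap for either gene. *Foxp4*, at 315 to 355 CPM in the embryos and 72.1 to 89.6 CPM in LSK cells, was lower by 2.07 on the log2 scale. *Foxm1*, *Foxk2*, *Foxo4*, *Foxo1* and *Foxj2* were lower in LSK cells by 1.24-fold (*Foxo1*) to 1.59-fold (*Foxo4*), and *Foxj3*, *Foxh1*, *Foxk1* and *Foxn3* did not pass the test.

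The 12 members without a count in any WT LSK library, where 3 counts correspond to 0.0232 CPM, included *Foxb1*, *Foxc2*, *Foxd3*, *Foxe3*, *Foxf2* and *Foxl1*. Set against this limit of 3 counts over the 4 libraries, *Foxc2* was at least 1998-fold and *Foxb1*, a factor of the caudal diencephalon, at least 882-fold higher in the WT embryo. The same 12 genes stayed at 2 counts or fewer in each mutant LSK group. The number of members without any count was 14 in *Kat6b* E/E, 17 in *Kat6a* E/E and 19 in the double mutant, and 3 counts corresponded to 0.0386, 0.0316 and 0.0417 CPM in these groups. WT had the fewest such members and the lowest limit, and the double mutant had the most and the highest. Between them, *Kat6a* E/E had more such members than *Kat6b* E/E at a lower limit. The *Kat6a* E/E and double-mutant groups hold the 4 libraries with few genes detected. The part of depth and of these libraries in the numbers was not tested. Because of low counts, 8 members were not tested in embryos: *Foxd4*, *Foxi1*, *Foxl3*, *Foxn1*, *Foxp3*, *Foxr1*, *Foxr2* and *Foxs1*, none of which exceeded 12 counts in an embryo library.

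Among the E9.5 comparisons, the one of *Kat6a*-/- embryos with WT called the largest number of forkhead genes. In *Kat6a*-/- embryos, 7 of the 37 members tested fell and none rose relative to WT (FDR below 0.05), whereas 2.64% of all 14183 genes tested were called and 1.38% were called lower. The 7 genes were the endoderm and floor plate factors *Foxa1* and *Foxa2*, the lateral plate and gut mesenchyme factors *Foxf1*, *Foxf2* and *Foxl1*, the mesoderm factor *Foxc2* and the lens factor *Foxe3*. Negative estimates were found for 26 of the 37 members and for 50.8% of all genes. The median log2 fold change of the members was -0.04, and that of all genes was near 0. The count of 7 became 4 without surrogate variables, 3 without WT replicate 4 and 9 with 6 surrogate variables, and DESeq2 called 1 member higher, *Foxi2* (0.61, FDR 0.0315). All 4 *Kat6a*-/- libraries lay below all 4 WT libraries for 8 members, and above them for 1; these arrangements held for 6.49% and 5.44% of all genes. In RNA from whole embryos, fewer cells of a type and less RNA per cell cannot be told apart.

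**Figure D2:**
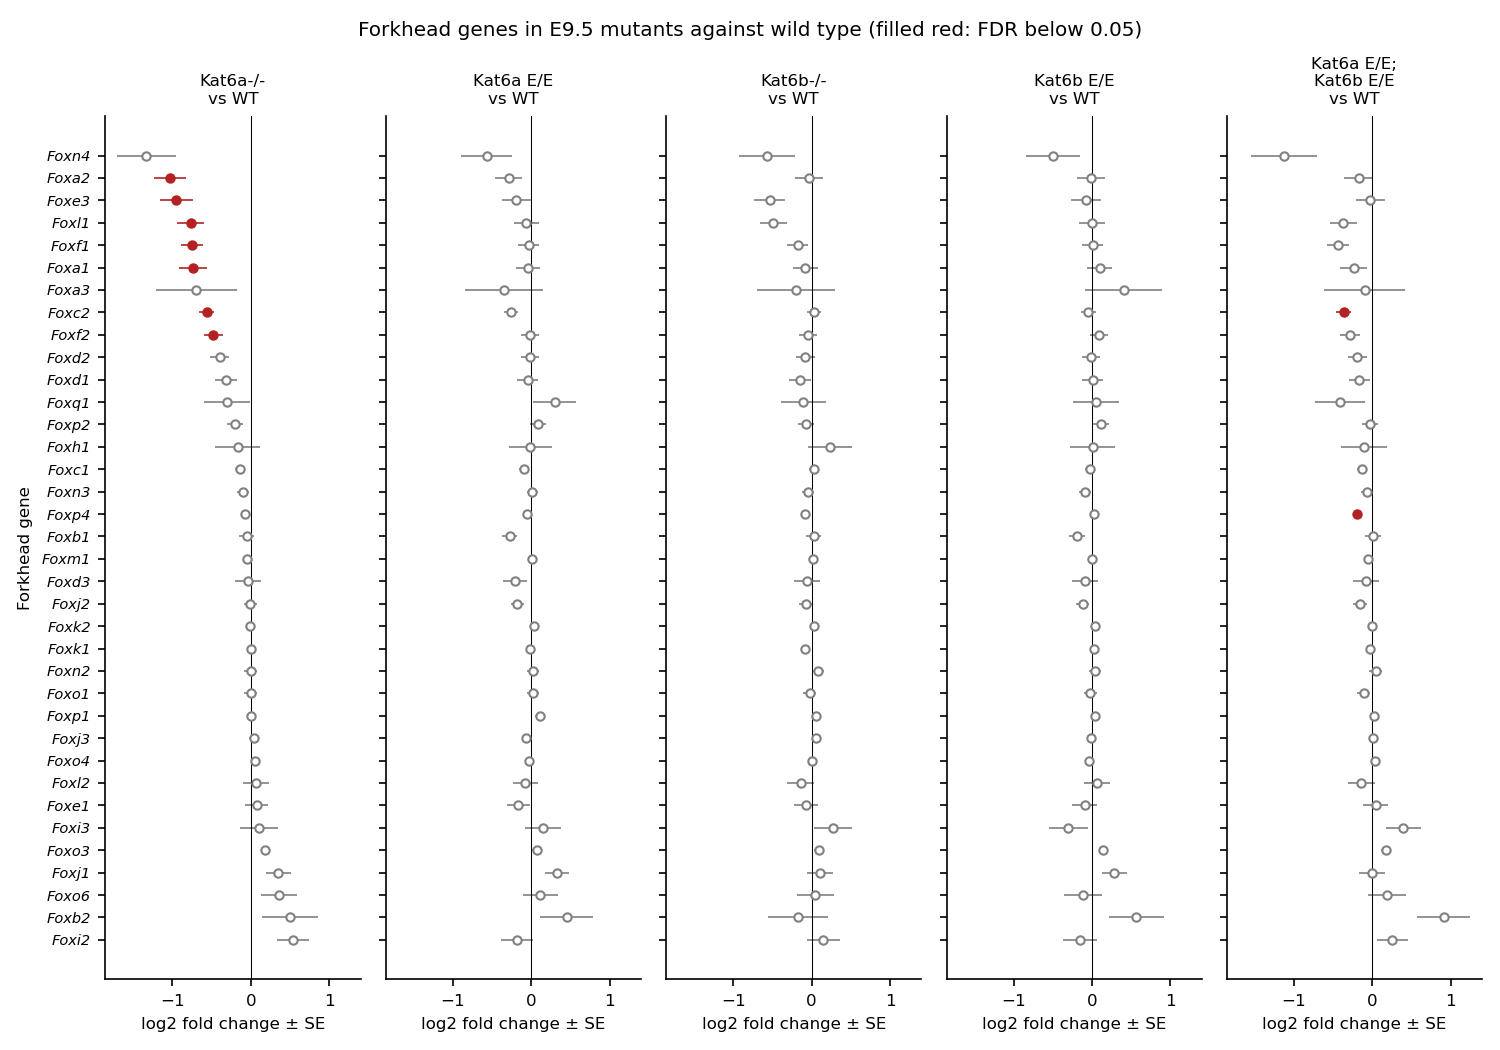
Log2 fold change with its SE for 36 of the 37 forkhead genes tested in each E9.5 mutant genotype against WT, in the order of their change in *Kat6a*-/- embryos; filled red points have an FDR below 0.05. In *Kat6a*-/-, 7 red points lie left of 0, with 2 in the double mutant and none in the other 3 genotypes.

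Among the endodermal members, *Foxa2* showed the larger estimate. In WT embryos it was at 11.9, 11.1, 9.05 and 13.1 CPM, and in *Kat6a*-/- embryos at 2.74, 3.72, 7.58 and 5.76 CPM. Every null embryo lay below every WT embryo, with a log2 fold change of -1.03 ± 0.21 (SE) and an FDR of 0.0114. *Foxa1* was at 10.2, 13.1, 12.01 and 16.3 CPM in WT and at 5.82, 3.79, 8.37 and 10.6 CPM in *Kat6a*-/- embryos. The highest null embryo overlapped the lowest WT embryo, and the log2 fold change was -0.74 ± 0.18 with an FDR of 0.0291. The FDR of *Foxa1* stayed below 0.05 in 2 of the 8 fits that left out a library, and without replicate 2 of the null, its lowest library, the change was -0.43 with an FDR of 0.163. *Foxa3*, the third member of the class, was at 0.503 CPM over the WT embryos and did not pass the test (log2 fold change -0.69, FDR 0.55).

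The 3 genes *Foxf1*, *Foxc2* and *Foxl1* were each called lower, and they are neighbours on one chromosome. *Foxf1* was at 23.7, 34.0, 38.0 and 33.2 CPM in WT and at 22.1, 10.6, 22.9 and 28.6 CPM in *Kat6a*-/- embryos. One WT embryo lay within the null range, and the log2 fold change was -0.75 ± 0.14 with an FDR of 0.0111. The call rested on replicate 2 of the null at 10.6 CPM, without which the change was -0.47 with an FDR of 0.176. *Foxc2*, at 40.6, 47.4, 43.7 and 50.9 CPM in WT and 26.6, 28.0, 32.8 and 31.4 CPM in *Kat6a*-/-, showed no overlap. It fell by 0.56 ± 0.10 on the log2 scale, with an FDR of 0.00352, and remained called whichever library was left out. With 2 surrogate variables in place of 4 it was not called (FDR 0.0804). *Foxl1*, a gut mesenchyme factor, was at 5.62, 5.23, 6.01 and 6.22 CPM in WT and 2.65, 2.72, 4.38 and 3.70 CPM in *Kat6a*-/-. These groups did not overlap either, with a log2 fold change of -0.77 ± 0.18 and an FDR of 0.0185, which exceeded 0.05 in 5 of the 8 fits that left out a library, reaching 0.0762.

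*Foxe3* was at 4.15, 3.17, 3.72 and 5.36 CPM in WT and 1.59, 2.99, 1.41 and 1.97 CPM in *Kat6a*-/- embryos. All null embryos were lower, with a log2 fold change of -0.95 ± 0.21 and an FDR of 0.0164. *Foxf2*, which acts beside *Foxf1* in the gut mesenchyme, was at 12.7, 12.9, 14.9 and 12.8 CPM in WT and 8.47, 10.96, 11.7 and 7.54 CPM in the null. The groups did not overlap, and the log2 fold change was -0.48 ± 0.12 with an FDR of 0.0354. Its FDR stayed below 0.05 in 2 of the 8 fits that left out a library, and that of *Foxe3* in 5 of 8.

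The remaining 30 members did not pass the test in *Kat6a*-/- embryos. *Foxc1*, the paralog of *Foxc2*, was at 71.6, 81.9, 80.8 and 89.0 CPM in WT and 66.5, 76.2, 68.1 and 72.1 CPM in the null. These ranges overlapped, and the log2 fold change was -0.14 ± 0.06 with an FDR of 0.219. The paper, by contrast, names *Foxc1* among the genes reduced in these embryos at an FDR below 0.05. *Foxn4*, a factor of retinal and spinal interneurons, was at 0.965 to 2.49 CPM in WT and 0.328 to 0.664 CPM in the null, without overlap, with a log2 fold change of -1.33 ± 0.37 and an FDR of 0.0517. For *Foxd2*, found in kidney and cranial mesenchyme, the 4 null embryos at 12.8, 17.4, 17.2 and 15.6 CPM lay below the 4 WT embryos at 20.4, 20.6, 18.02 and 26.0 CPM, and the FDR was 0.078. The abundant, broadly expressed members differed little, with log2 fold changes of -0.04 for *Foxm1*, -0.01 for *Foxk2*, 0.00 for *Foxp1* and -0.08 for *Foxp4*.

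**Figure D3:**
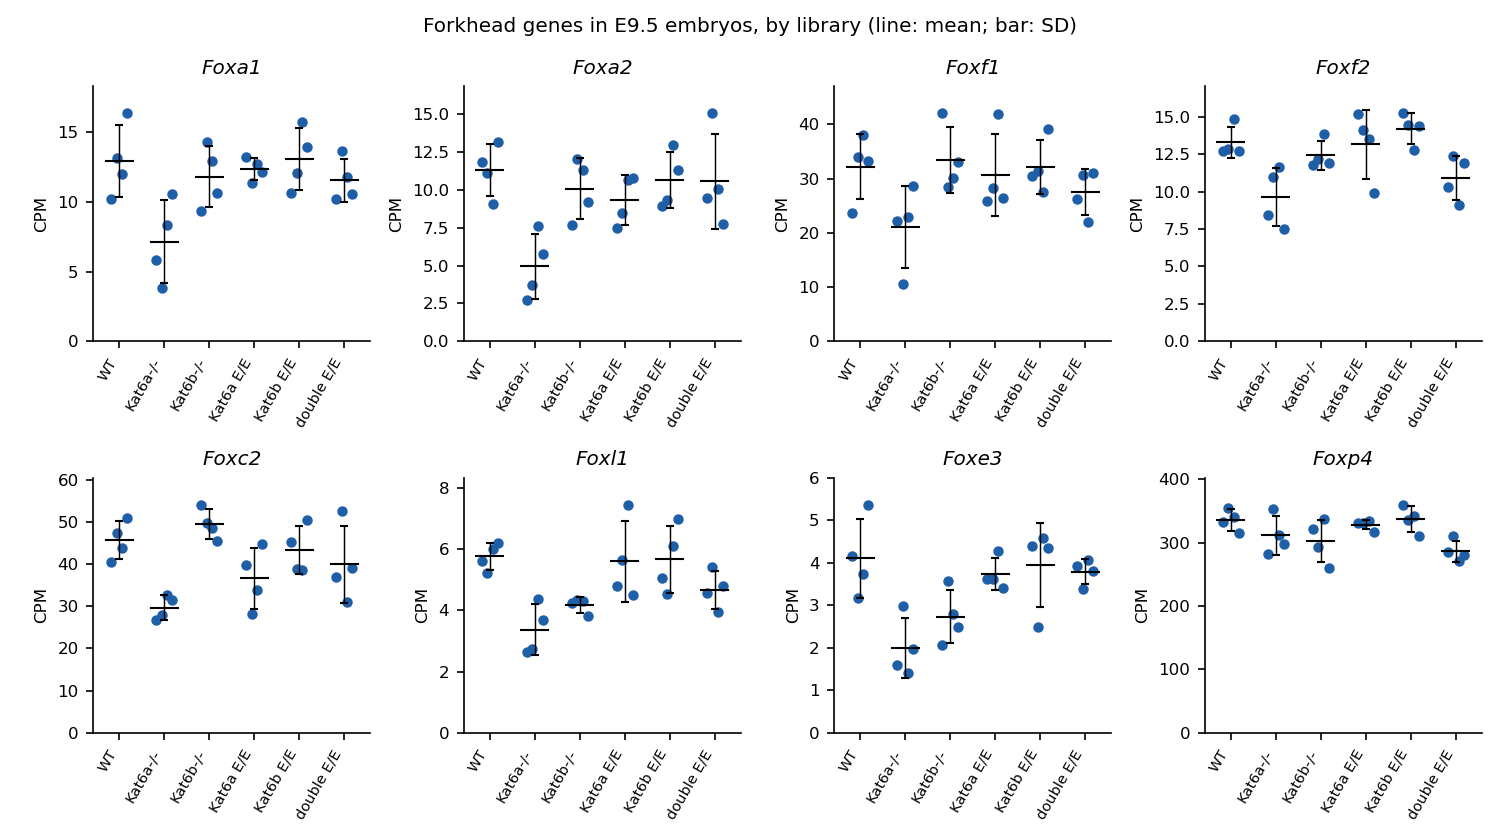
CPM of 8 forkhead genes in each of the 24 E9.5 embryo libraries, by genotype; points are libraries, lines are means and bars are SDs of 4 libraries, and "double E/E" is the double mutant. The *Kat6a*-/- points of *Foxa2*, *Foxc2*, *Foxf2*, *Foxl1* and *Foxe3* lie below all WT points, and those of *Foxa1* and *Foxf1* overlap with them.

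The litters of *Kat6a*-/- and WT embryos overlapped in 1 litter, with 1 embryo of each. The null embryo was replicate 2, the lowest null library for *Foxf1* and *Foxa1*, so these differences are not separate evidence. Within the litter, the null embryo minus the WT embryo gave a log2 difference (CPM + 0.5) of -1.55 for *Foxa2*, -1.32 for *Foxa1*, -1.13 for *Foxf1*, -0.93 for *Foxl1*, -0.53 for *Foxc2*, -0.42 for *Foxe3* and -0.21 for *Foxf2*. *Foxc1* differed by 0.09. These are single embryos, and no test was possible. *Kat6b*-/- and *Kat6a* E/E embryos also shared 1 litter each with WT. The other pairs of embryo genotypes compared had no litter in common, so those comparisons were made between litters only. Markers of other cell types were examined beside the changes. The 10 endothelial markers, among them *Cdh5* and *Kdr*, summed to 391 to 425 CPM in WT and 255 to 374 CPM in *Kat6a*-/- embryos, without overlap, although none passed the test alone. Sums of the stromal markers (2591 to 3076 CPM in WT, 2379 to 3081 CPM in the null), hepatoblast markers (515 to 568 and 477 to 669 CPM) and visceral endoderm markers (83.4 to 262 and 50.1 to 229 CPM) overlapped. The stromal marker *Vim* alone was called lower (576 against 678 CPM, log2 fold change -0.22, FDR 0.00510). Sums of the LSK markers did not overlap (282 to 313 CPM in WT, 260 to 276 CPM in the null), and none of them was called. Sums of the other blood cell lists overlapped. No defining marker of the endothelial, stromal or hepatoblast lists was at 0 in all embryos of either genotype. The part of cell composition in the forkhead changes was not tested.

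The genomic positions of the 7 genes were examined on GRCm39, the build of the alignment. *Foxf1* (chr8:121811074-121814883), *Foxc2* (chr8:121842910-121845634) and *Foxl1* (chr8:121854679-121857383) lie in this order on the plus strand of chromosome 8, separated by gaps of 28.026 kb and 9.044 kb. Within 500 kb of this cluster, 8 other genes were examined in embryos. They were the protein-coding genes tested and *Fendrr*, while other noncoding genes were not examined. None of the 8 was called in *Kat6a*-/-. One of these, *Mthfsd*, lies between *Foxf1* and *Foxc2* and was at 33.1 CPM in the null and 32.9 CPM in WT, with a log2 fold change of 0.05 (FDR 0.78). The noncoding gene *Fendrr*, which starts next to *Foxf1*, was at 3.79 and 6.46 CPM, with a log2 fold change of -0.59 and an FDR of 0.14 in the fit of all gene types. Libraries were unstranded, and 3.97% of the exonic bases of *Foxf1*, 6.02% of those of *Foxf2* and 4.79% of those of *Foxp4* are shared with genes on the opposite strand, so reads of these stretches cannot be assigned to one strand.

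*Foxe3* on chromosome 4 (chr4:114782344-114783210, minus strand) lies 16.273 kb from *Foxd2*. Within 500 kb, 5 other genes were examined by the same choice, with *Foxd2os* as the only noncoding gene. The noncoding *Foxd2os* beside *Foxd2* fell in *Kat6a*-/- embryos by 0.41 ± 0.11 on the log2 scale, with an FDR of 0.0425 in the fit of all gene types. The other 4, among them the blood factor gene *Tal1*, did not pass the test. On chromosome 13, *Foxf2* lies 64.703 kb from *Foxq1*, known from the hair shaft, and *Foxc1* lies further along. *Foxq1* had a log2 fold change of -0.31 (FDR 0.66) and *Foxc1* one of -0.14. *Foxa1* on chromosome 12 and *Foxa2* on chromosome 2 have no forkhead neighbour within 100 kb.

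**Figure D4:**
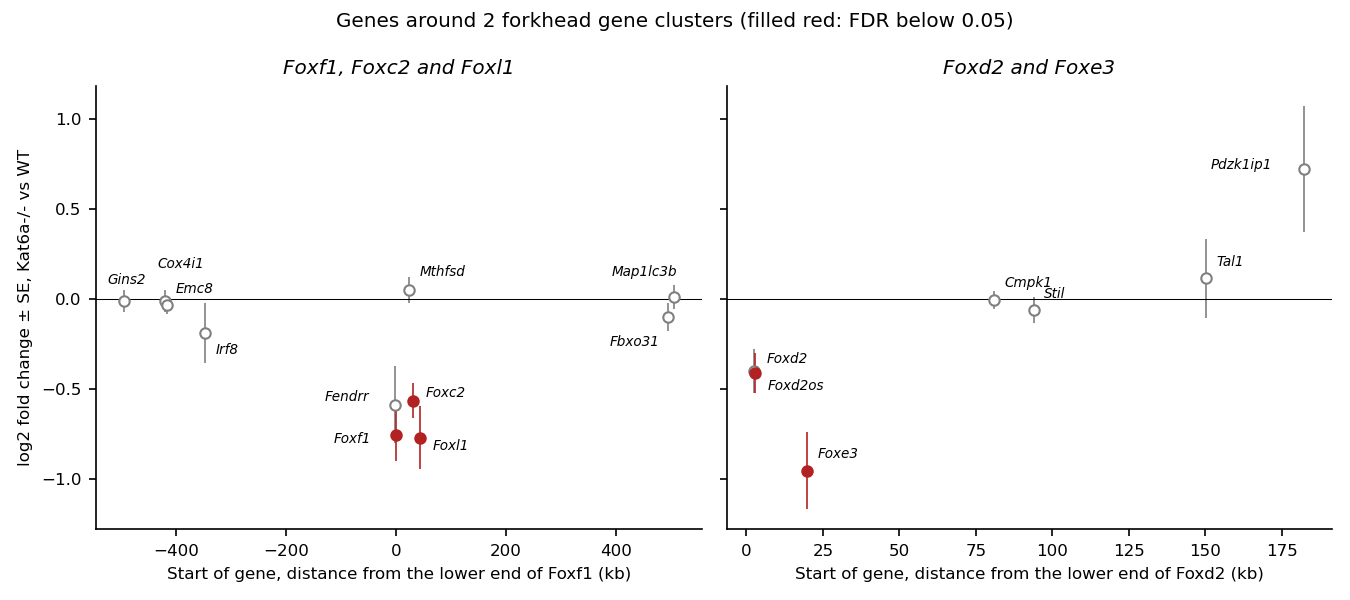
Log2 fold change with its SE in *Kat6a*-/- embryos against WT, by distance in kb. Shown are the genes examined around the *Foxf1*, *Foxc2* and *Foxl1* cluster (left) and the *Foxd2* and *Foxe3* pair (right). Filled red points have an FDR below 0.05. On the left the 3 forkhead genes are the red points and *Mthfsd* between them lies at 0.05; on the right *Foxe3* and *Foxd2os* are red.

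The 150 bases before the start of *Foxf1*, *Foxc2* and *Foxa2* are shown because each of these genes was called lower in *Kat6a*-/- embryos while their promoters differ in CpG content. Each is written 5′ to 3′ on the strand of its gene, from GRCm39 with GENCODE starts: *Foxf1* chr8:121810924-121811073, *Foxc2* chr8:121842760-121842909 (both plus strand) and *Foxa2* chr2:147889006-147889155 (minus strand). Capitals mark CpG dinucleotides.
*Foxf1* promoter: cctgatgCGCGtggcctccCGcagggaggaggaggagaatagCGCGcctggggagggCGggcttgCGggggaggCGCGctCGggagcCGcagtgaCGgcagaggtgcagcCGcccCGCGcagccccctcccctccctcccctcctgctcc
*Foxc2* promoter: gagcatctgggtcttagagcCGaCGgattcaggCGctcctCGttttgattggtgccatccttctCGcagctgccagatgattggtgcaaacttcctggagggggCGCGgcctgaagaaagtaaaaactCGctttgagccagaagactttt
*Foxa2* promoter: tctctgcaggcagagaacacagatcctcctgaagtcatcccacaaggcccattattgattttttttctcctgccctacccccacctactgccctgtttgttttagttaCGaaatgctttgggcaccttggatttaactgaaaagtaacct

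The printed *Foxf1* sequence holds 15 CpG dinucleotides, that of *Foxc2* holds 8 and that of *Foxa2* holds 1. In windows of 300 bases (250 before and 50 after the start), the median number of CpG dinucleotides was 15 in the 7 members that fell, 24 in the 30 other members tested and 17 in 14144 genes tested. The forkhead core TGTTTAC, searched on both strands, occurred in 1 of the 7 windows, that of *Foxa1*, in 0 of the 30 others and in 2.67% of all windows. The letters TATAAA, searched likewise, occurred in the windows of *Foxa2* and *Foxc2*, in 2 of the 30 others and in 8.10% of all. These are counts of letters and no evidence of binding.

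Genes that act with or downstream of the forkhead factors were followed in lists drawn up from textbook knowledge, with earlier results of these data known. The paper names *Tbx1* and *Tbx5*, which are in the lists, as reduced in the same *Kat6a*-/- embryos. Shares called in these lists are therefore a description and no independent support, here and in the other comparisons. Of 27 measured notochord, floor plate and endoderm genes linked to FOXA, 4 fell in *Kat6a*-/- embryos and none rose, with a median log2 fold change of -0.25. Of all 14183 genes, 2.64% were called in this comparison and 1.38% were called lower. These shares apply to each list of this comparison. *Ntn1*, the floor plate guidance cue, was at 89.7 CPM in the null and 156 CPM in WT (log2 fold change -0.68, FDR 0.00590). The others were *Spon1*, a floor plate matrix gene (-0.62, FDR 0.0180), and the ventral neural factors *Nkx6-1* (-0.80, FDR 0.0282) and *Nkx2-9* (-0.89, FDR 0.0457). These 4 genes are of the ventral neural tube, and no gene of the liver or gut endoderm in the list was called.

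Of 28 paraxial and pharyngeal mesoderm genes linked to FOXC, 3 fell and none rose in *Kat6a*-/- embryos. *Tbx1*, a pharyngeal mesoderm factor, was at 14.3 CPM in the null and 26.8 CPM in WT (log2 fold change -0.77, FDR 0.000171). *Six2*, a factor of kidney and head mesenchyme (-0.60, FDR 0.00183), and *Lfng*, a Notch modulator of the segmentation clock (-0.30, FDR 0.00745), were the others. Of 22 lateral plate and gut mesoderm genes linked to FOXF, 2 fell: the stomach mesenchyme factor *Barx1* (12.5 against 21.4 CPM, FDR 0.0133) and the heart and forelimb factor *Tbx5* (14.9 against 20.04 CPM, FDR 0.0263). *Kdr*, *Pdgfra* and the Hedgehog receptor gene *Ptch1* in this list did not pass the test.

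Of the 18 neural crest genes linked to FOXD3, 3 fell and 2 rose in *Kat6a*-/- embryos. Those that fell included *Ednrb*, an endothelin receptor gene, and *Nr2f1*, and those that rose were *Zic1* and *Msx2*, while *Foxd3* itself had a log2 fold change of -0.04 (FDR 0.94). *Rfx4*, a regulator of cilia, fell among 14 ciliogenesis genes linked to FOXJ1 (-0.46, FDR 0.00284). Of 30 mitotic genes linked to FOXM1, *Cenpb*, a centromere protein gene, fell (-0.20, FDR 0.0375). This 1 gene of 30 stands beside 2.64% of all genes called.

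In *Kat6b*-/- embryos, none of the 37 members passed the test, against 0.508% of all genes. An unadjusted p below 0.05 from limma was found for 2 members and for 1713 of all 14183 genes. *Foxl1* was at 4.25, 4.35, 4.29 and 3.80 CPM, below all WT embryos, with a log2 fold change of -0.49 and an FDR of 0.209. *Foxe3*, at 2.07, 3.57, 2.80 and 2.49 CPM, overlapped WT, with a log2 fold change of -0.54 and an FDR of 0.242. All 4 libraries lay below WT for 3 members, an arrangement found for 3.44% of all genes. *Foxa2* at 7.66, 12.1, 11.3 and 9.23 CPM and *Foxc2* at 54.1, 49.8, 48.6 and 45.6 CPM overlapped the WT values.

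The 2 null genotypes were also compared directly. *Foxc2* was lower in *Kat6a*-/- than in *Kat6b*-/- embryos by 0.60 ± 0.10 on the log2 scale (FDR 0.00412), and *Foxa2* by 0.99 ± 0.21 (FDR 0.0266). Neither gene overlapped between the groups. These were the only members called, 2 of 37, while 1.64% of all genes were called and 0.677% were called lower. *Foxf1* (-0.57, FDR 0.0520), *Foxa1* (-0.66, FDR 0.0635) and *Foxf2* (-0.43, FDR 0.0656) lay just beyond the threshold. Without replicate 2 of *Kat6a*-/-, neither *Foxa2* (FDR 0.109) nor *Foxc2* (FDR 0.0571) passed it. *Ntn1*, *Prox1*, *Tbx1*, *Uncx* and *Barx1* of the lists were lower in *Kat6a*-/- in the same comparison, and *Msx1* and *Zic1* were higher.

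The point mutations were examined next, to separate loss of the acetyltransferase site from loss of the protein. In *Kat6a* E/E embryos none of the 37 members passed the test, against 0.275% of all genes. An unadjusted p below 0.05 from limma was found for 5 members and for 1421 of all 14183 genes. *Foxc2* was at 39.9, 28.2, 33.9 and 44.9 CPM, overlapping WT, with a log2 fold change of -0.26 ± 0.09 (FDR 0.318). *Foxa2* at 7.48, 8.45, 10.6 and 10.8 CPM, *Foxa1* at 13.2, 11.4, 12.7 and 12.1 CPM and *Foxe3* at 3.62, 3.62, 4.27 and 3.41 CPM overlapped WT as well. In *Kat6b* E/E embryos none of the members passed the test, and 1 member, *Foxo3*, had an unadjusted p below 0.05 (FDR 0.998). Of all genes, 0% were called by limma, edgeR or DESeq2, and 626 had an unadjusted p below 0.05 in limma.

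Set directly against *Kat6a*-/-, *Kat6a* E/E embryos had higher levels of 2 members, *Foxf1* and *Foxl1*; 1.6% of all genes were called and 0.973% were called higher. *Foxf1* was at 26.0, 28.3, 41.9 and 26.4 CPM in *Kat6a* E/E, which overlapped the null, with a log2 fold change of 0.72 ± 0.15 and an FDR of 0.0212. *Foxl1* at 4.81, 5.65, 7.45 and 4.50 CPM was above every null embryo, with a log2 fold change of 0.71 ± 0.18 and an FDR of 0.0443. Without replicate 2 of the null these were 0.44 (FDR 0.303) for *Foxf1* and FDR 0.187 for *Foxl1*. The estimates of the other genes that fell in the null were positive here but not called, namely *Foxa1* (0.70, FDR 0.0553), *Foxf2* (0.46, FDR 0.0593), *Foxe3* (0.76, FDR 0.0749), *Foxa2* (0.74, FDR 0.0867) and *Foxc2* (0.31, FDR 0.134). The 2 contrasts share the *Kat6a*-/- libraries. No litter held both *Kat6a* E/E and *Kat6a*-/- embryos, so a part of litter in these differences was not excluded. Without surrogate variables no member was called here, whereas DESeq2 called 7, among them *Foxi2* as lower. Of the FOXA-linked genes, *Ntn1*, *Spon1*, *Prox1* and *Nkx6-1* were higher in *Kat6a* E/E than in the null, as were *Tbx1* (FDR 0.00893) and *Barx1* (FDR 0.00974). *Msx1*, listed under FOXC and under neural crest, was lower (-0.48, FDR 0.0155), and of the 18 neural crest genes 3 were lower and 3 higher.

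In the double point mutant, 2 of the 37 members fell relative to WT, *Foxp4* and *Foxc2*; 2.91% of all genes were called and 1.57% were called lower. *Foxp4* was at 285, 310, 271 and 280 CPM against 333, 355, 341 and 315 CPM in WT. The groups did not overlap, and the change was small, -0.20 ± 0.05 on the log2 scale, with an FDR of 0.0204. *Foxc2* was at 37.0, 52.7, 31.1 and 39.0 CPM, and replicate 2, one of the libraries that stood apart, was above every WT embryo. Its log2 fold change was -0.37 ± 0.10 with an FDR of 0.0445, and it lost the call whichever of the 8 libraries was left out. Without surrogate variables no member was called. *Foxf1* (-0.44, FDR 0.104, but called by DESeq2 at an FDR of 0.0189) and *Foxf2* (-0.29, FDR 0.21) did not pass the test, and *Foxa2*, at 9.45, 15.1, 10.03 and 7.72 CPM, overlapped WT. *Foxo3* reached 127 CPM in replicate 2 and 44.1 to 54.4 CPM in the other 3 embryos (log2 fold change 0.17, FDR 0.138).

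Set against *Kat6a*-/-, no member was called by limma in the double point mutant, and 0.00705% of all genes were. An unadjusted p below 0.05 from limma was found for 6 members and for 1479 of all 14183 genes. DESeq2 called 2 members. *Foxe3* at 3.92, 3.37, 4.07 and 3.80 CPM (0.93 ± 0.21, FDR 0.147) and *Foxa2* (0.86 ± 0.22, FDR 0.185) were above every *Kat6a*-/- embryo. No member was called between *Kat6b* E/E and *Kat6b*-/- embryos, against 0.0353% of all genes. In limma, 6 members and 1253 of all 14183 genes had an unadjusted p below 0.05 there. Of the lists, the double mutant had lower *Uncx*, a somite factor (FDR 0.00557), and *Nkx3-2*, a sclerotome and spleen factor (FDR 0.0332), than WT. The FOXO-linked cell cycle inhibitor *Ccng2* was higher (49.1 against 31.9 CPM, log2 fold change 0.34, FDR 0.0257). *Cdkn1b*, of the same kind, was higher too (61.5 against 51.8 CPM, log2 fold change 0.24, FDR 0.0316). The CPM means are not adjusted for the surrogate variables, whereas the log2 fold changes and FDRs are. Among mitotic genes linked to FOXM1, *Hmmr* was higher and *Cdc20* and *Ccnb1* were lower, while *Foxm1* itself was at 191, 188, 186 and 199 CPM, against 197 to 212 CPM in WT.

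In E14.5 LSK cells, 15 members could be tested, and none was called in any of the 3 mutant genotypes by limma, edgeR or DESeq2. Over all 13071 genes, limma called 1.36% in the *Kat6a* E/E cells and 0% in each of the others, where 364 (*Kat6b* E/E) and 896 (double mutant) genes had an unadjusted p below 0.05. An unadjusted p below 0.05 was found for 2 members in *Kat6a* E/E, where 1639 of all genes had one in limma, and for 1 in each of the others. *Foxo1*, the FOXO factor most closely tied to lymphoid development, had the smallest p in *Kat6a* E/E and in the double mutant. It was at 24.7, 26.1, 24.1 and 26.3 CPM in WT, at 17.5, 14.3, 22.6 and 20.7 CPM in *Kat6a* E/E, and at 25.1, 17.5, 18.4 and 24.2 CPM in *Kat6b* E/E. In the double mutant it was at 18.5, 6.36, 11.2 and 13.1 CPM. All *Kat6a* E/E and double-mutant libraries were below all WT libraries, whereas *Kat6b* E/E overlapped; 2.21% of all genes in *Kat6a* E/E and 3% in the double mutant had this arrangement. The log2 fold changes were -0.41 ± 0.11 (FDR 0.0893), -0.17 ± 0.13 (FDR 1.00) and -0.67 ± 0.18 (FDR 0.329), in the order *Kat6a* E/E, *Kat6b* E/E, double mutant.

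The estimate for *Foxo1* in the double mutant depended on the handling of the libraries that stood apart. Without surrogate variables it was -1.04, with an unadjusted p of 0.000775 from limma and an FDR of 0.362, and without replicate 1 of the double mutant it was -1.06 ± 0.21 with an FDR of 0.00314. That omission called 2170 genes over all, where none was called with replicate 1, and it left the double mutant with the libraries of 1 litter, which held no WT sample, so litter and genotype cannot be told apart there. In the 1 litter that held both genotypes, the *Kat6a* E/E sample was lower than the mean of 3 WT samples by a log2 difference of -0.50. Markers of B, T and natural killer cells summed to 38.2 to 90.2 CPM in WT, 20.01 to 50.8 CPM in *Kat6a* E/E and 2.90 to 27.4 CPM in the double mutant, and erythroid markers to 1317 to 4767, 764 to 7476 and 1617 to 16428 CPM. The part of these cells in the *Foxo1* values was not tested.

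The other FOXO factors and the abundant members did not follow *Foxo1*. *Foxo3* was at 159 to 190 CPM in WT, 169 to 190 CPM in *Kat6a* E/E, 150 to 190 CPM in *Kat6b* E/E and 160 to 170 CPM in the double mutant. The 4 groups overlapped, with log2 fold changes of 0.01, 0.02 and -0.04, and *Foxo4* likewise overlapped WT in every mutant. *Foxm1* was at 131 to 139 CPM in WT and at 124 to 149 CPM over the mutants. *Foxp1* was at 141 to 191 CPM in WT, 133 to 184 CPM in *Kat6a* E/E, 100 to 165 CPM in *Kat6b* E/E and 112 to 163 CPM in the double mutant, with p above 0.05 in each comparison.

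*Foxj2*, a broadly expressed member, was at 13.6, 12.2, 12.9 and 13.5 CPM in WT and at 9.67, 7.64, 11.9 and 9.75 CPM in *Kat6a* E/E. These groups did not overlap, and the log2 fold change was -0.37 ± 0.15 with an FDR of 0.290. *Foxh1*, a partner of SMAD proteins in Nodal signalling, was at 1.05, 1.67, 1.31 and 3.35 CPM in WT and at 1.94, 14.2, 12.8 and 6.71 CPM in the double mutant. The groups overlapped, with a log2 fold change of 0.14 ± 0.39, and without replicate 1 of the double mutant, the omission that called 2170 genes over all, it was 1.21 with an FDR of 0.00652. Of the exonic bases of *Foxh1*, 40.2% are shared with genes on the opposite strand, *Kifc2* among them, so its counts are uncertain.

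**Figure D5:**
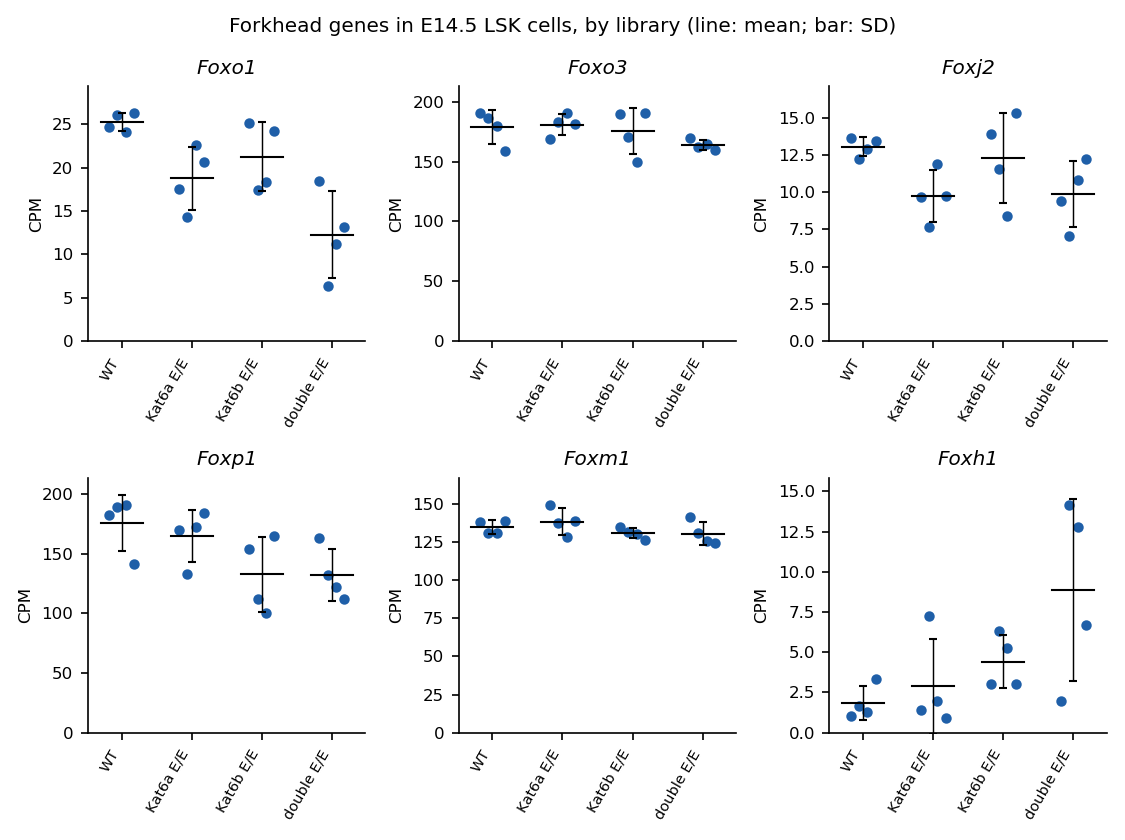
CPM of 6 forkhead genes in each of the 16 E14.5 LSK libraries, by genotype; points are libraries, lines are means and bars are SDs of 4 libraries, and "double E/E" is the double mutant. *Foxo1* lies below all WT points in *Kat6a* E/E and in the double mutant, and *Foxo3* and *Foxm1* overlap among all 4 genotypes.

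Of 25 FOXO-linked genes measured in LSK cells, 3 fell in *Kat6a* E/E and none rose, beside 1.36% of all genes called. They were the recombinase genes *Rag1* (21.7 against 49.6 CPM in WT, log2 fold change -1.46, FDR 0.0216) and *Rag2* (9.24 against 15.6 CPM, -0.57, FDR 0.0295) and the interleukin 7 receptor gene *Il7r* (11.5 against 21.4 CPM, -0.87, FDR 0.0299), all of lymphoid progenitors. Of the 6 B, T and natural killer cell markers tested, 4 had an unadjusted p below 0.05 in the same comparison, with a median log2 fold change of -0.73, and their part in these changes was not tested. Without replicate 1 of *Kat6a* E/E, 1 gene in all was called here in place of 178. Cell cycle inhibitors and stress response genes of the list, such as *Cdkn1b* and *Sod2*, did not pass the test. None of 18 regulators and partners of FOXO, among them *Akt1* and *Sirt1*, was called in any LSK genotype, and no FOXO-linked gene was called in *Kat6b* E/E or the double mutant.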

How the data were processed

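Bulk RNA was sequenced in 40 libraries of 10 groups. The authors aligned paired-end reads to mm39 with Rsubread and deposited one count of read pairs per RefSeq gene (featureCounts, unstranded libraries). Sequencer, read length and RNA input differ between the labels and the methods. The 4 libraries of a group came from separate embryos or foetuses.

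The model followed the study: protein-coding genes without Y-linked genes (types matched by identifier for 26359 of 26411 genes to a RefSeq table of GRCm38.p6), filterByExpr, TMM scaling, 4 surrogate variables (wsva), voomLmFit with litter as random block and robust empirical Bayes moderation, separately for embryos and LSK samples. The litter correlation was 0.107 and 0.331. Numbers of genes tested and called differed from those in the paper. WT LSK samples and WT embryos were fitted together without surrogate variables or litter. The FDR was obtained by Benjamini-Hochberg adjustment across every gene tested in a comparison. Computations used limma 3.58.1, edgeR 4.0.16 and DESeq2 1.42.0 in R 4.3.3, and the fit was tested on simulated data. CPM was scaled by TMM within each stage, and RPKM used the gene length given beside the counts. Positions and promoters came from GENCODE vM39 on GRCm39.

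Some genes and sequences are not reported here. The members and lists were chosen with earlier results of these data known. Values per library are given for members called between genotypes, for *Foxa2*, *Foxc1* and *Foxc2*, and for members singled out after their values were seen, and ranges otherwise. Alternatives were other numbers of surrogate variables, no litter block, edgeR and DESeq2 tests, DESeq2 size factors, no filter, all gene types, a replicate block, only the libraries compared and omission of each library.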

Additional observations from a re-analysis of the deposited data

Results flagged for a closer look

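A library far from the other 3 of its genotype was found in 12 of 170 gene and genotype groups by Dixon's ratio, of which chance gives about 1 in 20. *Foxo3* was at 127 CPM in replicate 2 of the double-mutant embryos (44.1 to 54.4) and at 61.3 CPM in replicate 3 of *Kat6b*-/- (46.7 to 47.3).

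Among genes that fell in *Kat6a*-/- embryos, *Foxf2* was at 14.9 CPM in WT replicate 3 (12.7 to 12.9 in the others). *Foxf1* was at 41.9 CPM in *Kat6a* E/E replicate 3 (26.0 to 28.3), and *Foxe3* at 2.48 CPM in *Kat6b* E/E replicate 2 (4.34 to 4.58). *Foxc1* was at 71.4 CPM in the same embryo (80.3 to 81.6). *Foxj2* was at 15.3 CPM in *Kat6a*-/- replicate 4 (17.0 to 17.1) and at 17.0 CPM in *Kat6b*-/- replicate 3 (15.3 to 15.6), and *Foxh1* at 5.08 CPM in *Kat6a*-/- replicate 3 (2.26 to 2.67).

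In LSK cells, replicate 2 of *Kat6a* E/E held *Foxp4* at 51.3 CPM (76.9 to 82.0) and *Foxh1* at 7.26 CPM (0.883 to 1.97). *Foxd2* was at 0.316 CPM in WT replicate 2 (0.838 to 0.885). Outside the protein-coding genes, *Foxd2os* had a log2 fold change of -0.41 in *Kat6a*-/- embryos. No member tested at both stages had every library of a point mutant on one side of WT in embryos and on the other side in LSK cells.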

How the results depend on the processing

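No forkhead gene was called under any alternative in *Kat6b*-/-, *Kat6a* E/E or *Kat6b* E/E embryos against WT, in *Kat6b* E/E against *Kat6b*-/- embryos, or in *Kat6a* E/E or *Kat6b* E/E LSK cells. For *Kat6a*-/- against WT, the 7 called genes became 4 without surrogate variables, 3 with 2 surrogate variables, 9 with 6 surrogate variables (*Foxd2* and *Foxn4* added), 8 with all gene types (*Foxn4* added) and 8 with DESeq2 (*Foxi2* added, higher), and 3 to 6 when a library was left out (4 without WT replicate 1, 2 or 3, and 3 without WT replicate 4). For the double mutant against WT, the 2 called genes became 0 without surrogate variables or with only the libraries compared, and 1 with 2 surrogate variables, without the filter on low counts, with all gene types or with a replicate block, and 3 with DESeq2 (*Foxf1* added); leaving out a library gave 0 to 1 (0 without WT replicate 2 or 3, or double-mutant replicate 3). For *Kat6a* E/E against *Kat6a*-/-, the 2 became 0 without surrogate variables or with only the libraries compared, 1 with 2 and 7 with 6 surrogate variables, 4 without the litter block and with edgeR, 7 with DESeq2 and 5 with all gene types, and 1 to 4 when a library was left out. *Foxi2* was called lower there with 6 surrogate variables, with DESeq2, and without *Kat6a*-/- replicate 4 or *Kat6a* E/E replicate 3. For the double mutant against *Kat6a*-/-, the 0 became 1 (*Foxe3*) with 6 surrogate variables and 2 (*Foxe3* and *Foxa2*) with DESeq2. For *Kat6a*-/- against *Kat6b*-/-, the 2 became 1 without surrogate variables and 5 with DESeq2, and 0 to 4 when a library was left out (0 without *Kat6a*-/- replicate 2). In double-mutant LSK cells, only the omission of replicate 1 gave calls, 2 in number: *Foxo1*, and *Foxh1* with a log2 fold change of 1.21 and an FDR of 0.00652, among 2170 genes called over all. Between WT tissues the count of 31 ranged from 31 to 37 over the models and from 31 to 33 when a library was left out. The cause of these shifts was not tested.

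Over all genes, the number called in *Kat6a*-/- embryos was 375, against 111 without and 631 with 6 surrogate variables, and in the double mutant it was 413, against 0 and 811. For *Kat6a* E/E LSK cells, 178 genes were called, 3 without surrogate variables, 28 with a replicate block, 1 without *Kat6a* E/E replicate 1 and 25 without WT replicate 2. For *Kat6b* E/E LSK cells, 0 became 96 without WT replicate 4. The only estimate that changed sign among the genes followed was that of *Foxa2* in the double mutant (-0.17), which ranged from -0.29 (without double-mutant replicate 2) to 0.00622 (without double-mutant replicate 4). Replicate numbers did not pair the libraries: same-numbered libraries correlated with a median r of 0.048 (-0.233 to 0.311) in embryos and 0.004 (-0.427 to 0.353) in LSK samples, and 10 of 24 and 6 of 16 libraries correlated best with their own number. With a replicate block, 5 members were called in *Kat6a*-/- against WT, 3 in *Kat6a*-/- against *Kat6b*-/- and 1 in the double mutant against WT. In *Kat6a* E/E against *Kat6a*-/-, that block called 2 members, *Foxf1* as higher and another as lower, and *Foxl1* was not called. Depth limits the members near 1 CPM, such as *Foxn4*, and those with counts near 0 in LSK cells.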

Other observations

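The genes whose mean log2 CPM over the 6 embryo genotypes was most like that of a forkhead gene were, for *Foxa2*, *Dennd4a* (Pearson r 0.992), *Diras1* (0.992) and *Kif11* (0.991). For *Foxc2* they were *Nup98* (0.997), *Atad5* (0.995) and *Mtr* (0.992), and for *Foxc1* they were *Nolc1* (0.997), *Ttll4* (0.992) and *Mtr* (0.984). These are the highest of all 14183 genes over 6 means, a description without a test.

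Some further calls among genes of the lists were the following. *Wnt5a*, a noncanonical Wnt ligand of the lateral plate list, was higher in *Kat6b*-/- embryos than in WT (103 against 71.1 CPM, FDR 0.00474). It was lower in *Kat6a*-/- than in *Kat6b*-/- embryos (log2 fold change -0.36, FDR 0.00792). *Cdc20*, an activator of the anaphase-promoting complex in the FOXM1 list, was lower in *Kat6b*-/- embryos (248 against 276 CPM, FDR 0.0277). The double mutant also had lower *Cdc20* than WT (log2 fold change -0.20, FDR 0.00832). In *Kat6a* E/E LSK cells the ciliary gene *Ccdc40* was higher than in WT (17.0 against 12.4 CPM, FDR 0.0299). The 18 FOXO partners and regulators gave no call in any genotype comparison at either stage.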
